A study of Homo sapiens with 4 samples.

Results

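A set of 10 genes of the glycolytic pathway was followed through the deposited table of RNA-seq counts from the human neuroblastoma line SK-N-SH. They were the rows whose gene symbol was HK1, HK2, PFKM, PFKP, TPI1, GAPDH, PGK1, ENO1, ENO2 or LDHA, and all 10 were found, 1 row each, among the 24014 genes of the table. Several of them are alternatives for the same step, so the questions were which form each library used and whether that use, or the level of any of the genes, differed with overexpression of the long non-coding RNA AP1AR-DT.

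Glycolysis splits glucose into pyruvate in the cytosol and yields ATP and NADH without oxygen. Hexokinase and phosphofructokinase are its early, largely irreversible and regulated steps, the enzymes from triosephosphate isomerase to enolase carry the reversible lower chain, and lactate dehydrogenase turns pyruvate into lactate and regenerates NAD+. In the brain, HK1 is the main hexokinase, neurons exchange the ubiquitous enolase ENO1 for the gamma enolase ENO2 as they mature, and ENO2 is used in the clinic as a marker of neuroendocrine tumours, neuroblastoma among them.

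The data comprised 4 libraries. In 2 (control) the cells had received a lentiviral vector with no insert according to their treatment label, and in 2 (AP1AR-DT_OE) a lentiviral vector carrying AP1AR-DT, which the labels name AC109347.1. The control libraries are titled WT with a wild type genotype, and the count columns named Control were matched to them. The vector also carries puromycin resistance and a fluorescent protein, and whether the cells were selected or cloned is not given in the sources used here. All were the same cell line, with no other allele or agent named, and for AP1AR-DT_OE 2 the version suffix of the RNA in 2 label fields differs from that in its title, which was followed. Nothing in the labels says that the libraries came from separate cultures, so p-values measure the spread between these libraries, which may be technical.

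The libraries held 21988065 to 26184599 counts, and a pair of reads was worth about 4 counts. The targeted gene, AP1AR-DT, had 3 and 18 counts in control 1 and 2 and 680 and 1065 in AP1AR-DT_OE 1 and 2, so the labels and the transcript went together. Of the neuroblast markers PHOX2A, HAND2, GATA3, ISL1, TH and DBH, 5 of 6 were in the table, and each was above the floor of 12 counts (3 read pairs) in every library. Their summed level ranged from 699.7 to 723 in the control libraries and from 704 to 719 in the AP1AR-DT_OE libraries, in TPM, a level per length scaled to the same total in every library and computed here from the counts and the longest annotated transcript, which served for every comparison of levels between genes. All 6 mesenchymal markers were also above that floor (3351 to 3988 TPM in control, 3489 to 3925 in AP1AR-DT_OE). Of 9 markers of immune, epithelial, glial and endothelial cells, 3 were above it.

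The table also listed processed pseudogenes, intronless copies of a messenger RNA inserted elsewhere in the genome, for 7 of the 10 genes, and for several of them these rows held as many counts as the gene itself or more. Stretches of coding sequence are shown first because they show how little separates a gene from its copy where reads must be assigned. Each stretch is the first 120 bases of the gene's longest coding exon, read 5′ to 3′ from the GRCh37 genome, and capitals mark the bases of a copy that differ from the gene. TPI1, on the + strand at chr12:6978422-6978541 in exon 4, and TPI1P1, on the + strand at chr1:77165798-77165917, differed at 1 base.
TPI1: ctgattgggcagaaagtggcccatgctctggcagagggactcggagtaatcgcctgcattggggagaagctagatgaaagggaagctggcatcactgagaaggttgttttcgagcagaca
TPI1P1: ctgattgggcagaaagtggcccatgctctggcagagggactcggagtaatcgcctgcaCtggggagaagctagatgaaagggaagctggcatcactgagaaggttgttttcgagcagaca
GAPDH, on the + strand at chr12:6646750-6646869 in exon 8, and GAPDHP1, on the - strand at chrX:39646746-39646865, differed at 5 bases.
GAPDH: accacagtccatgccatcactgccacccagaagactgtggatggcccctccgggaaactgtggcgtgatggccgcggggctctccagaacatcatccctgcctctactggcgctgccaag
GAPDHP1: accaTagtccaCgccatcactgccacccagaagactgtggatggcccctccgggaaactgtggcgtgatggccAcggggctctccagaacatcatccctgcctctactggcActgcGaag
The enolases are shown as a set of 3 because a gene, its copy and its neuronal alternative can be read against each other. ENO1 lay on the - strand at chr1:8926441-8926560 in exon 7. ENO1P1, on the + strand at chr1:236646909-236647028, differed from it at 7 bases, and ENO2, on the + strand at chr12:7027104-7027223, at 19.
ENO1: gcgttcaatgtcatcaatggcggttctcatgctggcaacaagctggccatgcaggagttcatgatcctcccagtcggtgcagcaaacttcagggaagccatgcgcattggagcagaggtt
ENO1P1: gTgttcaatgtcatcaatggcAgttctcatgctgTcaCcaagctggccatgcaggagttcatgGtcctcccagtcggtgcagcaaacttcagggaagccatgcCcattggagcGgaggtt
ENO2: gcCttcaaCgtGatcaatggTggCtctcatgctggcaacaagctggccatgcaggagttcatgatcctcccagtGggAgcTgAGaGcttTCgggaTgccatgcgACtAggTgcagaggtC
The lactate dehydrogenases gave the same order. LDHA lay on the + strand at chr11:18422384-18422503 in exon 4, LDHAP4, on the - strand at chr9:14921969-14922088, differed at 9 bases, and LDHB, on the - strand at chr12:21796923-21797042, at 35.
LDHA: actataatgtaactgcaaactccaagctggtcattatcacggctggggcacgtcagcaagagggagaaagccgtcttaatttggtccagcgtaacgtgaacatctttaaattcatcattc
LDHAP4: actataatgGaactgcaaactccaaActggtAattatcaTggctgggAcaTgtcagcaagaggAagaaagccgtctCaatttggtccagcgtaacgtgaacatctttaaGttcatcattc
LDHB: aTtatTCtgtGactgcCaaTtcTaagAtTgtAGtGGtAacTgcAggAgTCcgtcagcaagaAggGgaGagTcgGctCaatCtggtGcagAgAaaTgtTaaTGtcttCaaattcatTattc
Over the whole coding sequence, the most counted copy of each gene was identical to it at 98.13% of aligned bases for TPI1, 96.67% for HK2, 96.21% for GAPDH, 95.77% for LDHA, 94.94% for PGK1 and 93.16% for ENO1. The ENO2 copy was a short piece, identical at 79.91% of 423 aligned bases. The alternatives for a step were less alike than the first 6, at 77.51% for ENO1 and ENO2, 74.86% for HK1 and HK2, 73.14% for PFKM and PFKP and 73.13% for LDHA and LDHB. A stretch of 150 coding bases, the length of 1 read, occurred unchanged in the copy at 12 of 598 positions of TPI1 and 55 of 2602 positions of HK2, and at 0 positions of GAPDH, PGK1, ENO1 and LDHA.

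The deposited counts were divided between gene and copies in a ratio that varied little between libraries, except for HK2. The 17 GAPDH copies held 55.7% to 57.4% of the counts of GAPDH and its copies together, and GAPDHP1 alone had 50704 and 46064 counts in the control libraries and 48716 and 46403 in the AP1AR-DT_OE libraries, against 39185 and 38040, and 38506 and 38449, for GAPDH. The 4 TPI1 copies held 66.1% to 68.9%, nearly all of it in TPI1P1, and the 2 PGK1 copies 63.0% to 66.6%. Thus most of what was counted at these 3 steps was counted at a pseudogene. The copies of ENO1 held 40.3% to 44.01%, those of LDHA 37.5% to 43.0%, the HK2 copy HK2P1 31.8% to 43.6%, and the ENO2 copy, chosen after its values were seen, 7.78% to 9.35%. No copy of HK1, PFKM or PFKP was listed. Whether the counts of a copy were reads of its own transcript or of the gene was not tested, and the levels of the 7 genes are therefore given below as the table lists them and, where it matters, with their copies added.

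**Figure D1:**
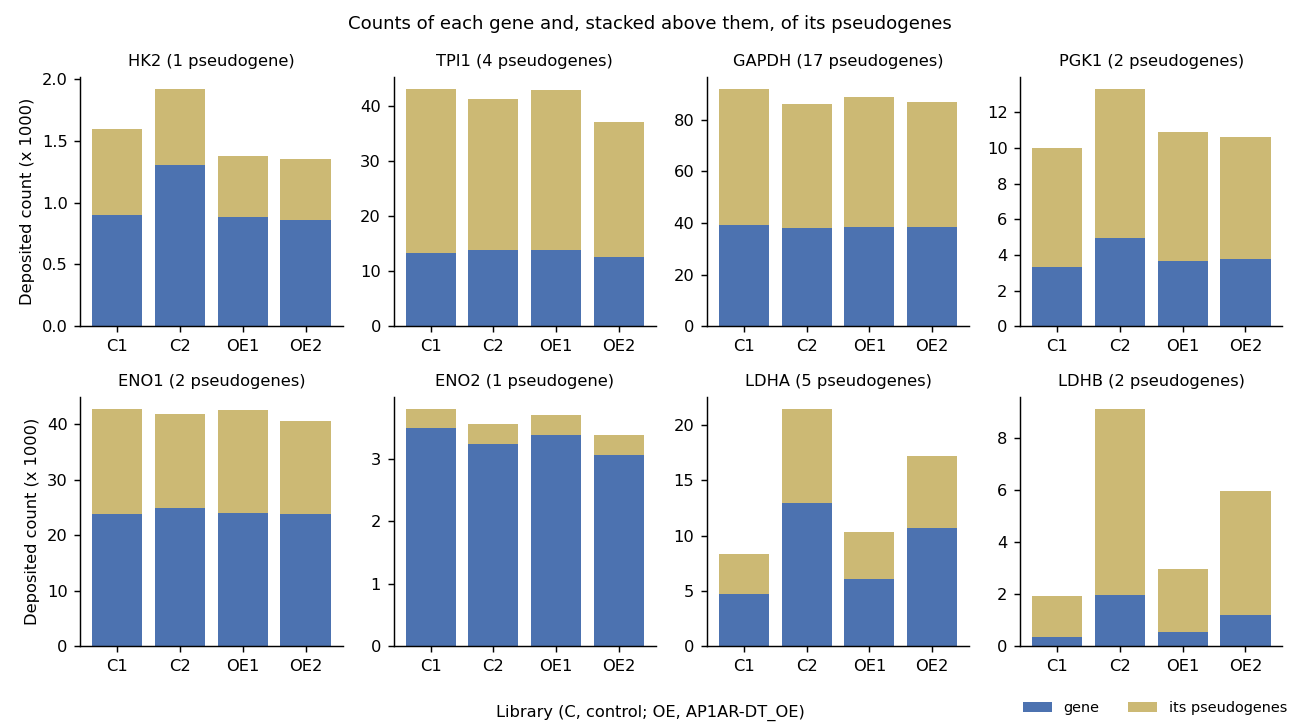
Deposited counts (vertical axis, in units of 1000) of 7 of the genes and of LDHB in control 1 and 2 (C1, C2) and AP1AR-DT_OE 1 and 2 (OE1, OE2), with the counts of their pseudogenes stacked above them. The pseudogene part exceeds the gene in every library for TPI1, GAPDH, PGK1 and LDHB, and LDHA and LDHB with their copies are taller in both replicates 2 than in both replicates 1.

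Without the pseudogene rows, the order of the genes by level was almost the same in the 4 libraries. GAPDH was highest in each, with a mean of 1733 TPM (range 1475 to 1889), followed by ENO1 (734 TPM, 654 to 779) and TPI1 (589.9 TPM, 526 to 640), whose ranges did not meet. LDHA came next (289.5 TPM, 175 to 386), then HK1 (121 TPM, 99.8 to 143) and ENO2 (90.2 TPM, 76.2 to 103), and the ranges of HK1 and ENO2 met. PGK1 (62.4 TPM, 57.7 to 68.3) and PFKP (56.0 TPM, 49.3 to 65.5) changed places in control 1 and did not differ beyond their spread. PFKM (26.6 TPM, 25.2 to 28.7) and HK2 (13.4 TPM, 12.004 to 15.5) were the lowest in every library. With the counts of the copies added to each gene, over the length of the gene, TPI1 (1566 to 2030.2 TPM) stood above ENO1 (1095 to 1392 TPM) and PGK1 (173 to 184 TPM) above HK1 and ENO2 in every library, so these places in the order depended on where the reads of the copies belong. The order also rests on the longest transcript as the length. Over all its exons ENO1 has 5216 bases rather than 2548, and TPI1 2700 rather than 1763. By that length TPI1 stood above ENO1 in every library. LDHA has 6026 bases rather than 2241, HK1 6876 rather than 3998 and ENO2 4281 rather than 2827. By these lengths LDHA fell below HK1 and ENO2 in control 1. As listed, the genes spanned the expression range of the cells from rank 71 to rank 6831 among the genes of a library.

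**Figure D2:**
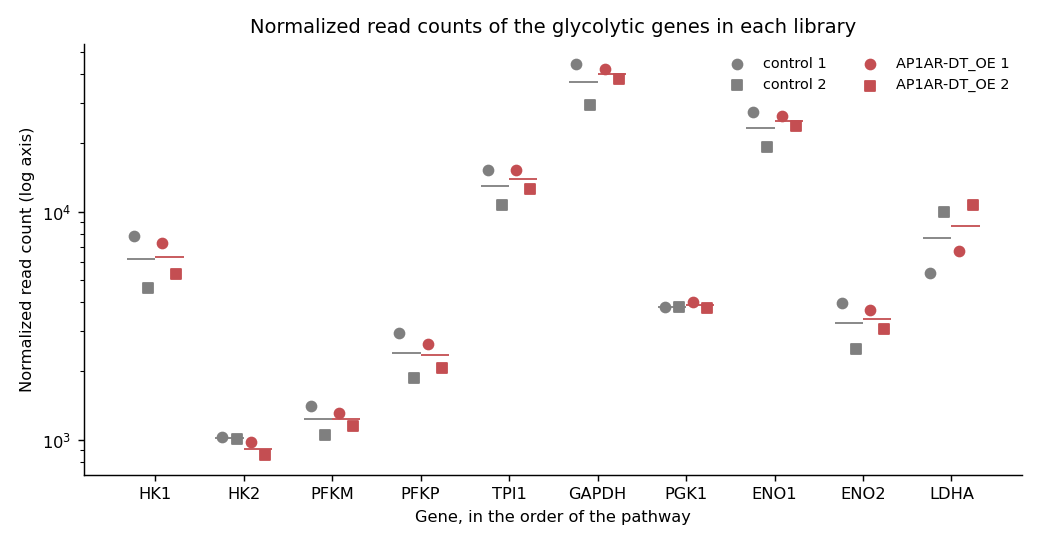
Normalized read counts (log axis) of the 10 genes in control 1 and 2 (grey circle and square) and AP1AR-DT_OE 1 and 2 (red circle and square), with lines at the group means. Control and AP1AR-DT_OE points interleave for every gene but HK2, and LDHA is the gene in which both squares stand above both circles.

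None of the 10 genes passed the test for a difference between AP1AR-DT_OE and control. By DESeq2 at an adjusted p under 0.05, 0 were called higher and 0 lower, where 0.137% of all 24014 genes were called in either direction (0.0833% higher and 0.0541% lower). Before adjustment, 0 of the 10 and 196 of all genes had a p under 0.05 in this fit. At such rates a count of 0 says little about 10 genes. The edgeR quasi-likelihood test also called 0 of the 10, and 0 of them were under 0.05 before adjustment; it called 0 genes in the whole table, of which 112 were under 0.05 before adjustment. With the replicate number as a block in DESeq2, 0 were called where 0.154% of all genes were, and with that block and a correction for GC content 0 were called where 0.246% were. In the latter fit 1 of the 10, LDHA (Log2FC = 0.26), was under 0.05 before adjustment, as were 252 of all 24014 genes. Each of the 10 had an adjusted p of 1.00. Log2FC ran from -0.15 for HK2 to 0.17 for LDHA, with a median of 0.05 beside a median of -0.02 over the 13298 genes whose normalized counts averaged at least 50. The standard errors of the 10 genes lay between 0.42 and 0.49, and their 95% intervals reached down to between 0.491-fold and 0.597-fold and up to between 1.64-fold and 2.19-fold. These intervals are not limits of detection. A change within them can go uncalled in this fit, and so can a larger one. PRRX1, a mesenchymal marker, had a Log2FC of -2.02 and was not called (DESeq2, adjusted p = 0.431). Set against the library of the same replicate number, 8 of the 10 genes were lower in AP1AR-DT_OE 1 than in control 1 and 8 were higher in AP1AR-DT_OE 2 than in control 2. HK2 was lower in both and LDHA higher in both.

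**Figure D3:**
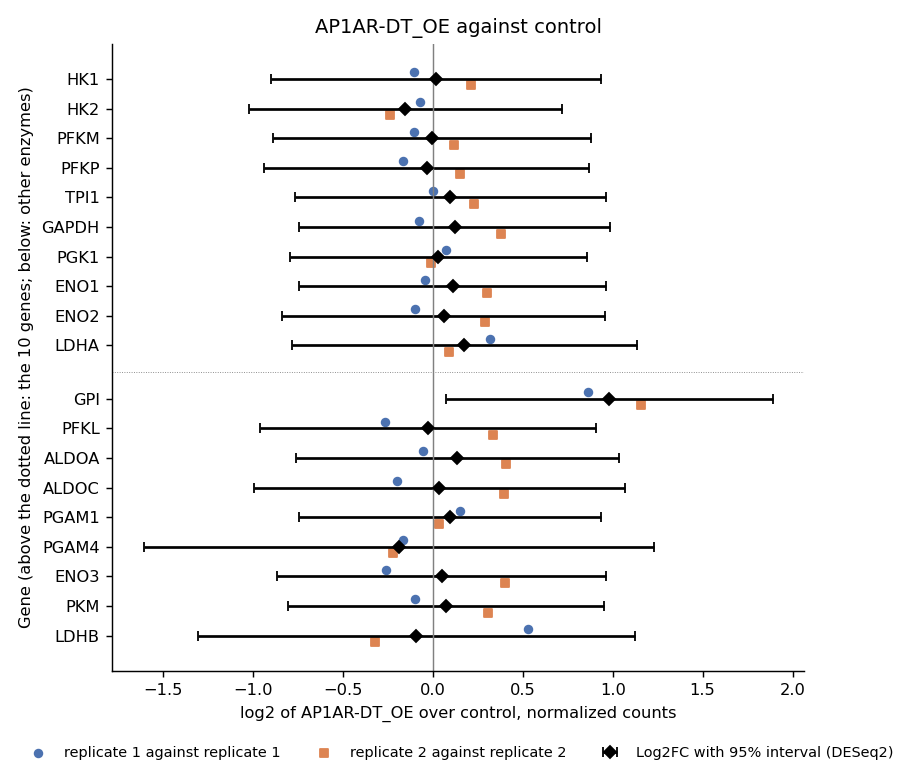
Log2FC of AP1AR-DT_OE over control (horizontal axis; diamonds, with 95% intervals from DESeq2) for the 10 genes and, under the dotted line, 9 other glycolytic enzymes, with the same ratio of normalized counts within replicate 1 (blue circles) and within replicate 2 (orange squares). The interval of each of the 10 genes crosses 0, GPI stands at 0.98, and for 8 of the 10 genes the circle and the square lie on opposite sides of 0.

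Hexokinase traps glucose in the cell as glucose-6-phosphate, and these cells used mainly HK1, the form that predominates in brain. HK1 (ENSG00000156515, chr10:69269984-69401884 in GRCh38, the build of the coordinates in the table) had 7844 and 4616 normalized reads in control 1 and 2 and 7287 and 5341 in AP1AR-DT_OE 1 and 2. The AP1AR-DT_OE values fell between those of the control libraries, and Log2FC was 0.02 (SE = 0.47). HK2 (ENSG00000159399, chr2:74834127-74893359), the form of muscle and of many tumours, had 1023 and 1009 normalized reads in control and 972 and 855 in AP1AR-DT_OE. Both AP1AR-DT_OE libraries were below both control libraries, the only gene of the 10 without overlap, where 4.35% of genes with a mean of at least 50 were lower without overlap and 9.45% did not overlap in either direction. The difference was small (Log2FC = -0.15, SE = 0.44), and with HK2P1 added it was -0.21 (SE = 0.44). With HK2P1 the counts were 1592 and 1919 in control and 1380 and 1349 in AP1AR-DT_OE. Divided by the size factors (0.878 and 1.296, 0.912 and 1.008), AP1AR-DT_OE 1 then stood above control 2, so the groups overlapped. In TPM with HK2P1 they did not, at 22.7 to 23.5 in control and 18.8 to 19.9 in AP1AR-DT_OE. Per base of transcript, HK2 made up 8.48% and 13.4% of the counts of HK1 and HK2 in control and 8.66% and 10.2% in AP1AR-DT_OE. The means were 11.0% ± 3.51 and 9.43% ± 1.10 (SD, n = 2), a difference smaller than the spread between the control libraries (exact permutation test, two-sided, p = 1.0). A test of 2 against 2 libraries cannot give a p under 0.333. Without control 2 the difference turned, from -1.53 to 0.953 percentage points. Counting HK2P1 with HK2 raised the share to 14.1% and 18.6% in control and 12.9% and 15.1% in AP1AR-DT_OE, so HK1 remained the larger part in every library. HK3 and HKDC1, alternatives that are rarer in most tissues, were low: HK3 had 4 to 10 counts, under the floor of 12 in every library, and HKDC1 had 4 to 22.

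Phosphofructokinase commits the sugar to glycolysis and works as a tetramer built from 3 kinds of subunit, PFKM, PFKP and PFKL, and all 3 were present. PFKP (ENSG00000067057, chr10:3066333-3137718), the platelet type, had 2937 and 1861 normalized reads in control and 2617 and 2066 in AP1AR-DT_OE, with the AP1AR-DT_OE values inside the control range (Log2FC = -0.03, SE = 0.46). PFKM (ENSG00000152556, chr12:48105139-48146404), the muscle type, had 1410.0 and 1053 in control and 1313 and 1142 in AP1AR-DT_OE (Log2FC = -0.00, SE = 0.45), again inside the control range. The exons of PFKM overlap those of SENP1 on the other strand, and no source used here says if reads were counted by strand. PFKP was 69.5% and 66.0% of PFKP and PFKM per base in control, and 68.6% and 66.5% in AP1AR-DT_OE. The group means of 67.8% ± 2.53 and 67.5% ± 1.505 (SD, n = 2) differed by less than the spread within either group (exact permutation test, two-sided, p = 1.0). The 95% Wilson intervals of single libraries, taken on read pairs and covering counting error only, ran from 62.9% to 72.4%. Without control 1 the difference turned from -0.214 to 1.58 percentage points, and without AP1AR-DT_OE 2 to 0.850. PFKL, the liver type, was at the level of PFKP by the longest transcript, with 44.5 to 70.3 TPM. With it in the denominator, PFKP was 39.5% to 41.3% of the 3 in the 4 libraries. Both statements depend on the length used. Over all exons PFKL has 8926 bases rather than 6007, and PFKP 7774 rather than 3265. By that length PFKL stood above PFKP in every library, and the part of PFKP was smaller.

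TPI1, GAPDH and PGK1 work in the lower chain: TPI1 interconverts the triose phosphates, GAPDH makes the NADH of the pathway, and PGK1 its first ATP. TPI1 (ENSG00000111669, chr12:6867119-6870948) had 15290.1 and 10727 normalized reads in control and 15267 and 12549.7 in AP1AR-DT_OE, all within the control range (Log2FC = 0.10, SE = 0.44). GAPDH (ENSG00000111640, chr12:6534512-6538374) had 44629 and 29344 in control and 42237 and 38162 in AP1AR-DT_OE (Log2FC = 0.12, SE = 0.44). Its 2 control libraries thus lay further apart than any control library from an AP1AR-DT_OE library of the same replicate number. PGK1 (ENSG00000102144, chrX:77910739-78129295) had 3817 and 3801 in control and 4011 and 3773 in AP1AR-DT_OE (Log2FC = 0.03, SE = 0.42). It was the steadiest of the 10, and it overlaps ATP7A, so some of its reads may be counted at either gene. With their copies added, Log2FC was 0.05 for TPI1, 0.10 for GAPDH and 0.05 for PGK1.

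Enolase makes phosphoenolpyruvate, and the neuronal form was a small part of it in this line. ENO1 (ENSG00000074800, chr1:8861000-8879190), the ubiquitous alpha enolase, had 27272 and 19268 normalized reads in control and 26409 and 23770.4 in AP1AR-DT_OE (Log2FC = 0.11, SE = 0.43). ENO2 (ENSG00000111674, chr12:6913745-6923698), the gamma enolase of neurons and neuroendocrine cells, had 3983 and 2492 in control and 3709.7 and 3042 in AP1AR-DT_OE. Its AP1AR-DT_OE values lay within the control range (Log2FC = 0.06, SE = 0.46), as did those of ENO1. Per base, ENO2 was 11.6% and 10.4% of ENO1 and ENO2 in control and 11.2% and 10.3% in AP1AR-DT_OE, with means of 11.0% ± 0.842 and 10.8% ± 0.634 (SD, n = 2). This was the tightest of the 4 shares in percentage points, and the groups did not differ beyond their spread (exact permutation test, two-sided, p = 0.667). Without control 1 the difference turned from -0.247 to 0.349 percentage points, and without AP1AR-DT_OE 2 to 0.201. With the pseudogenes of both added, the share fell to between 6.98% and 7.40% in the 4 libraries. In bulk RNA, fewer cells with ENO2 and less ENO2 RNA per cell cannot be told apart. ENO3, the beta enolase of muscle, was present at 36.1 to 44.1 TPM, and adding it to the denominator left ENO2 at 9.82% to 11.1%.

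Lactate dehydrogenase is a tetramer of LDHA, the subunit that predominates in muscle and tumours, and LDHB, that of heart and brain, and here the replicate number separated the libraries more than the group did. LDHA (ENSG00000134333, chr11:18394560-18408425) had 5399.7 and 9996 normalized reads in control 1 and 2 and 6721 and 10646 in AP1AR-DT_OE 1 and 2. Both replicates 2 stood above both replicates 1, and Log2FC between the groups was 0.17 (SE = 0.49), or 0.13 (SE = 0.48) with its copies added. LDHB had 415 and 1514 normalized reads in control and 599 and 1212 in AP1AR-DT_OE, with the same split. LDHA was 89.9% and 81.9% of LDHA and LDHB per base in control, and 88.5% and 85.8% in AP1AR-DT_OE. The means were 85.9% ± 5.67 and 87.1% ± 1.93 (SD, n = 2) and did not differ beyond the control spread (exact permutation test, two-sided, p = 1.0). Without control 2 the difference turned from 1.21 to -2.80 percentage points, and without AP1AR-DT_OE 1 to -0.155. The 2 LDHB pseudogenes held 78.4% to 81.6% of the counts of LDHB and its copies, a larger part than for any of the 10 genes. When the copies of both genes were counted with them, LDHA was 74.7% and 61.8% in control and 70.6% and 66.4% in AP1AR-DT_OE, so it was the larger part in every library, by a margin that depended on how pseudogene counts were treated.

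**Figure D4:**
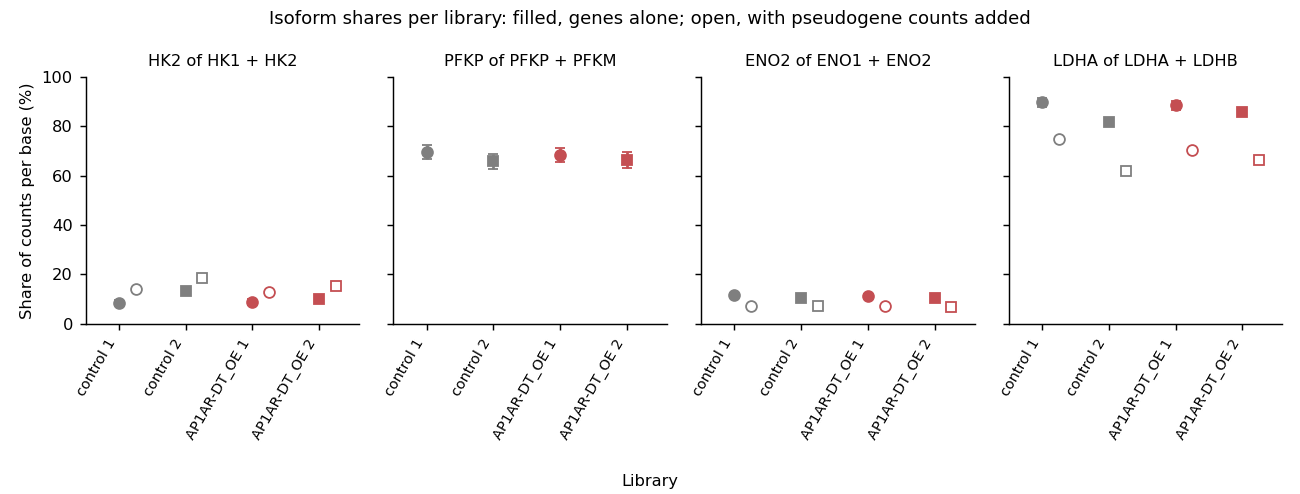
Share (%, vertical axis) of HK2, PFKP, ENO2 and LDHA in the counts per base of each pair, by library; filled symbols are the genes alone with 95% Wilson intervals on read pairs, open symbols add pseudogene counts. Control (grey) and AP1AR-DT_OE (red) overlap in every panel, and the LDHA share is the one that moves most when pseudogenes are added.

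The difference between replicate numbers followed the base composition of the transcripts. Over 13284 genes with a mean of at least 50 and a known transcript, the log2 ratio of replicate 2 to replicate 1 had a Spearman correlation of -0.77 with GC content in control and -0.65 in AP1AR-DT_OE, across genes that share the same 2 libraries. LDHA, with 41.8% GC the poorest of the 10, had ratios of 0.89 in control and 0.66 in AP1AR-DT_OE. PGK1, at 42.8%, had -0.01 and -0.09, and HK2, at 50.5%, -0.02 and -0.19. The 7 others had 51.5% to 57.6% GC, and each was lower in replicate 2 than in replicate 1 in both groups, down to -0.77 and -0.45 for HK1. After each library's counts were corrected for GC content, LDHA had the highest Log2FC of the 10 (0.26) and HK2 the lowest (-0.18). In that fit 0 of the 10 were called, where 55 of all 24014 genes were. The labels do not say that a replicate number marks a batch, and whether GC content set these ratios was not tested.

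**Figure D5:**
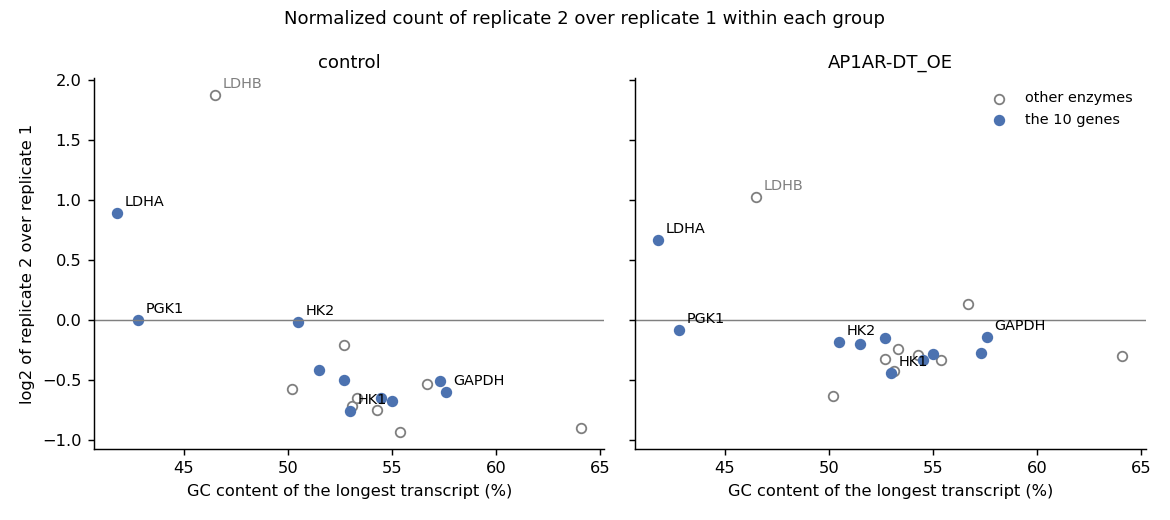
Log2 ratio of the normalized count of replicate 2 to that of replicate 1 (vertical axis) against the GC content of the longest transcript (horizontal axis, %), within control and within AP1AR-DT_OE, for the 10 genes (blue) and 9 other glycolytic enzymes (open). LDHA and LDHB, at low GC content, are high in replicate 2 of both groups, and most other enzymes lie below 0.

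The steps between the 10 genes were filled by other enzymes, of which GPI had the largest difference. GPI (ENSG00000105220, chr19:34359480-34402413), which turns glucose-6-phosphate into fructose-6-phosphate between hexokinase and phosphofructokinase, had 3982 and 2417 normalized reads in control 1 and 2 and 7241 and 5384 in AP1AR-DT_OE 1 and 2. Both AP1AR-DT_OE libraries were above both control libraries, and Log2FC was 0.98 (SE = 0.46), a 1.97-fold higher level (95% interval 1.05 to 3.71). It did not pass the test (DESeq2, adjusted p = 1.00), but it did with the replicate number as a block (Log2FC = 1.01, DESeq2 adjusted p = 0.000669), a number that the labels do not tie to a batch. The increase stood at 0.86 within replicate 1 and 1.16 within replicate 2 on the log2 scale, in contrast to the 10 genes, of which 8 had opposite signs. The exons of GPI overlap a further annotated gene on the same strand, so its counts may hold reads of both. Of the 18 other enzymes and alternatives considered, 12 were in the table and 9 of these had a mean of at least 50. By DESeq2, 0 were called (against 0.137% of all genes) and 1, GPI, had an unadjusted p under 0.05 (against 196 of all 24014 genes). By edgeR, 0 were called, but that test called 0 of the 17027 genes it covered, so its result adds nothing here. GPI was the 1 gene of the 9 that was higher without overlap, against 5.11% of all genes of that level.

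The remaining enzymes with a mean of at least 50 had smaller differences than GPI. Within replicate numbers, PKM, ALDOA, ALDOC, PFKL and ENO3 were lower in AP1AR-DT_OE 1 and higher in AP1AR-DT_OE 2, like most of the 10 genes. PGAM1 was higher in both (log2 ratios 0.15 and 0.03), PGAM4 lower in both (-0.17 and -0.22), and LDHB had the reverse order (0.53 and -0.32). PKM, the pyruvate kinase of the last step, was at 886 to 1176 TPM (Log2FC = 0.07, SE = 0.45). As listed, it was below GAPDH and above ENO1 in every library. With the copies of ENO1 added, ENO1 (1095 to 1392 TPM) stood above PKM in every library, and copies of PKM were not summed. ALDOA, the aldolase of most tissues, was at 315 to 447 TPM (Log2FC = 0.14, SE = 0.46), and its brain form ALDOC at 14.6 to 23.6 TPM (Log2FC = 0.04, SE = 0.53). PGAM1, the phosphoglycerate mutase of brain and most tissues, was at 383 to 449 TPM (Log2FC = 0.10, SE = 0.43), and PGAM4, which lies within the span the table gives for PGK1, at 2.41 to 3.88 TPM. PFKL had a Log2FC of -0.03 (SE = 0.48), ENO3 of 0.05 (SE = 0.47) and LDHB of -0.09 (SE = 0.62). LDHAL6A was at 0 in 3 of the libraries and under the floor in the other. GAPDHS, PGK2, PGAM2, PKLR, LDHC and LDHAL6B are not analysed here.

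Genes that set the flux of glycolysis or the fate of pyruvate also gave no calls. Of 21 such genes (the PFKFB enzymes and TIGAR, which set the phosphofructokinase activator fructose-2,6-bisphosphate, the pyruvate dehydrogenase complex with its kinases and a phosphatase, and the carriers of pyruvate and lactate), 18 were in the table. By DESeq2, 0 were called (against 0.137% of all genes) and 0 had an unadjusted p under 0.05 (against 196 of all 24014 genes). Such counts say little about so few genes, and their median Log2FC was -0.02, as over all genes with a mean of at least 50. By edgeR, 0 were called, as was so for all 17027 genes that test covered. PFKFB3 had the lowest value (Log2FC = -1.01, SE = 0.59), with 4133 and 2770.05 normalized reads in control and 725 and 2708 in AP1AR-DT_OE. It was low in AP1AR-DT_OE 1, while AP1AR-DT_OE 2 was close to control 2. PDHB, a subunit of pyruvate dehydrogenase, had the highest (Log2FC = 0.13, SE = 0.56), with 349 and 809.96 in control and 457 and 808 in AP1AR-DT_OE, and it was again split by replicate number.

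Several of the 10 genes, LDHA, PGK1, ENO1 and HK2 among them, are known targets of the hypoxia-inducible factors, and 20 other hypoxia-responsive genes were therefore described beside them. By DESeq2, 0 of the 20 were called (against 0.137% of all genes) and 0 had an unadjusted p under 0.05 (against 196 of all 24014 genes). By edgeR, 0 of the 20 were called, where 0 of the 17027 genes that test covered were. Of the 19 with a mean of at least 50, 5 had a positive and 14 a negative Log2FC, with a median of -0.08. Over all 13298 genes of that level, 5996 were positive and 7302 negative, with a median of -0.02. CA9, a carbonic anhydrase, was highest (Log2FC = 0.77, SE = 0.63), with 109 and 79.5 normalized reads in control and 206 and 115 in AP1AR-DT_OE. DDIT4, an inhibitor of mTORC1, was lowest (Log2FC = -0.47, SE = 0.64), with 1302 and 849 in control and 1280.07 and 274 in AP1AR-DT_OE. Its difference rested on AP1AR-DT_OE 2, since AP1AR-DT_OE 1 was close to control 1, and without AP1AR-DT_OE 2 it turned to 0.24.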

How the data were processed

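Total RNA of SK-N-SH cells was sequenced in 4 libraries, grouped by their titles. Per the paper's methods, the authors aligned the reads (150 bases, paired) with HISAT2 to hg19 and took a count per gene from StringTie output, whereas the submitters' processing notes name TopHat2 2.0.4, HTSeq, Cuffdiff and edgeR 2.6.12. The annotation is not given in the sources used here. The deposited values are raw counts. Low values piled up at multiples of 4, about 4 counts a read pair. The table also holds the fold changes and p-values of the authors' own tests, which were not used. Coordinates of whole genes are GRCh38, as in the table.

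Counts of all 24014 genes were fitted with DESeq2 1.42.0 in R 4.3.3 (Wald test, median-of-ratios size factors, Benjamini-Hochberg adjustment, default independent filtering). Normalized reads are counts divided by size factors. TPM and shares used the longest transcript of GENCODE 44 on GRCh37, which also gave GC content and sequences. Shares were compared by exact permutation. The edgeR quasi-likelihood test (4.0.16), other normalizations and filters, a replicate block, a GC correction (lowess over transcripts), another length and leaving out each library were alternatives, and pseudogene sums for HK2, ENO2 and LDHB and the refits for genes other than the 10 were added after seeing the data. The fit was tested on simulated counts. All 10 genes, the other enzymes and the target were named, and from the other lists called genes and those with the highest and lowest Log2FC. Of the lists, 3 genes are not reported here. The genes and lists were chosen with earlier results of these data known.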

Additional observations from a re-analysis of the deposited data

How the results depend on the processing

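No call among the 10 genes depended on the processing: 0 were called under each of the 13 alternatives run, which called between 0 (edgeR) and 90 (without control 1) genes over the whole table, against 33. The replicate numbers are not said to mark a shared batch, although deviations from the group means were correlated within a number (Pearson r = 0.49). With the replicate block, DESeq2 called 37 genes over the table and edgeR 44, 0 of them among the 10. It called 1 gene of the other enzymes and regulators, GPI (Log2FC = 1.01, DESeq2 adjusted p = 0.000669), as did the GC correction with replicate block (adjusted p = 3.01e-10), whereas the GC correction alone (0.0640), edgeR with replicate block (edgeR adjusted p = 0.119) and all other alternatives did not (adjusted p up to 1.00). The block reversed the sign of PFKM (0.007; 0.00 by edgeR), PFKL (0.033; 0.026 by edgeR) and LDHB (0.096; 0.091 by edgeR; 0.105 with GC correction), none of them called. The mean differences in share within replicate numbers equal the unblocked ones by arithmetic in this balanced layout, so the block is no check on the shares.

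Leaving out 1 library at a time (the lone library of a group was assumed to vary like the pair) moved the differences in share, in percentage points, from -4.01 to 0.953 for HK2, from -2.01 to 1.58 for PFKP, from -0.842 to 0.349 for ENO2 and from -2.80 to 5.22 for LDHA, and turned the sign of each. Log2FC ranged from -0.30 to 0.45 for HK1, -0.26 to -0.08 for HK2, -0.19 to 0.22 for PFKM, -0.32 to 0.33 for PFKP, -0.13 to 0.37 for TPI1, -0.14 to 0.45 for GAPDH, -0.019 to 0.063 for PGK1, -0.11 to 0.38 for ENO1, -0.23 to 0.44 for ENO2 and -0.21 to 0.70 for LDHA. Of these, HK2 alone kept its sign. As listed, without HK2P1, it is also the only gene of the 10 whose groups did not overlap, and leaving out 1 library can hardly turn such a sign. The same holds for the signs kept below, so they are no separate evidence. Among the other named genes it ranged from -0.40 to 0.49 for PFKL, -0.18 to 0.56 for ALDOA, -0.081 to 0.239 for PGAM1, -0.21 to 0.44 for PKM, -0.75 to 1.14 for LDHB, -0.19 to 0.34 for ENO3, -0.36 to 0.87 for PDHB and -1.98 to 0.24 for DDIT4, with signs turned, and from 0.68 to 1.39 for GPI, 0.28 to 1.12 for CA9 and -2.26 to -0.36 for PFKFB3, with signs kept. Other lengths, GC-corrected counts, family members and pseudogene sums kept the sign of every share difference to which they were applied, and the planned addition of further hexokinases to the HK2 share was not run. The standard errors of Log2FC of the 10 genes were 0.191 to 0.259 with the replicate block and 0.109 to 0.214 with GC correction as well. For the PFKP share, counting error was about as large as the spread between libraries.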

Other observations

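The neuronal markers were also higher in replicate 2 than in replicate 1 of both groups. The summed level of the neuronal markers STMN2, ELAVL4 and GAP43 ranged from 30.3 to 113 TPM in control and from 30.3 to 86.1 TPM in AP1AR-DT_OE. STMN2, a regulator of microtubules in growing axons, had 248 and 1837 counts in control 1 and 2 and 292 and 1123 in AP1AR-DT_OE 1 and 2, the same order as LDHA and LDHB. PRRX1, a mesenchymal transcription factor, had 2432 and 14724 counts in control and 1131 and 2263 in AP1AR-DT_OE, so that control 2 stood apart from the other 3 libraries and, after normalization, both AP1AR-DT_OE libraries were below both control libraries. Its Log2FC of -2.02 did not pass the test (DESeq2, adjusted p = 0.431), but it passed with the GC correction (Log2FC = -1.76, adjusted p = 0.00129) and with the replicate block (Log2FC = -1.75), with GC correction as well (Log2FC = -1.69). ENO2, the neuronal enolase, did not share this order: its normalized reads were lower in replicate 2 than in replicate 1 of both groups. The part of cell composition and that of base composition in these values was not tested.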
